A study of Mus musculus with 25 samples.

Results

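The CC chemokine ligands followed here are 10 mouse genes, Ccl2, Ccl3, Ccl4, Ccl5, Ccl6, Ccl7, Ccl9, Ccl12, Ccl17 and Ccl24. They were taken by gene symbol from the 25 Ccl symbols and 22439 genes of the deposited count tables. All 10 were found in the tables of every library. The data are unique molecular identifier (UMI) counts, in which each captured transcript is counted once by its 3′ end, of 30958 myeloid cells in 25 droplet libraries from mouse spinal cord. A level is given as CPM, the UMIs of a gene for each 1000000 UMIs of all summed cells of 1 type in 1 library.

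The libraries came from laminectomy alone (Ctrl, 2 libraries), in which bone is removed and the cord is not injured, or from injured cord taken 1 day (D1, 5 libraries), 2 days (D2, 4), 3 days (D3, 7), 10 days (D10, 5) or 21 days (D21, 2) later. All mice carried Cx3cr1CreERT2, an inducible Cre recombinase under control of the Cx3cr1 gene, which is active in microglia and in many blood monocytes. In 12 libraries the mice had no red reporter and every YFP+ cell was taken, which is called the mixed sort here. In the others the mice also carried R26tdTomato, and the RFP+/YFP+ cells (5 libraries, resident sort) and the RFP-/YFP+ cells (7 libraries, infiltrating sort) were collected apart. A single D3 library has a title and a sort label that contradict each other; it is named D3_conflict 1 and entered neither the main tests nor the within-library orders. Its cells are part of the cluster levels, and its levels stand in the closing section. Sort and strain therefore cannot be told apart between mixed and reporter libraries. Every library pools 1 to 3 mice and a 5 mm piece of cord, so the library is the replicate, and the labels give no age. Libraries are named by time, sort and number, such as D1_mixed 3.

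Chemokines are small secreted proteins that draw leukocytes along a gradient through G protein-coupled receptors, and those of the CC class have adjacent cysteines near the amino terminus. CCL2, CCL7 and CCL12 act on CCR2, the receptor by which inflammatory monocytes leave the bone marrow and enter injured tissue. CCL3, CCL4 and CCL5 are inflammatory chemokines that draw monocytes and T cells, and CCL3 and CCL5 act on CCR1. CCL6 and CCL9 are CCR1 ligands of rodents, CCL17 is a ligand of CCR4 on T cells, and CCL24 is a ligand of CCR3 on eosinophils.

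Of the genes, 8 lie close together on chromosome 11 (GRCm38, GENCODE M21), in a pair of groups. Ccl2 (chr11:82035571-82037453), Ccl7 (chr11:82045712-82047525) and Ccl12 (chr11:82101845-82103400) lie in a row on the plus strand. Ccl5 (chr11:83525778-83530518), Ccl9 (chr11:83572919-83578636), Ccl6 (chr11:83587882-83593087) and Ccl3 (chr11:83647844-83649355) follow on the minus strand, with Ccl4 (chr11:83662584-83664683) on the plus strand. Ccl17 (chr8:94810453-94812036) and Ccl24 (chr5:135569937-135573049) lie elsewhere.

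RefSeq promoter sequence on GRCm38.p6 was matched for 5 of the 10 genes. The 250 bases before the transcription start are shown for 4 of them: Ccl6 (chr11:83593088-83593337, minus strand) and Ccl9 (chr11:83578637-83578886, minus strand), neighbours whose levels ran most alike in macrophages among the matched genes, and Ccl12 (chr11:82101595-82101844, plus strand) and Ccl3 (chr11:83649379-83649628, minus strand), which were higher in microglia than in macrophages of most libraries. Each is written 5′ to 3′ on the gene's strand, and capitals mark matches on either strand to 4 motifs: NF-kB (GGG, then any 5 bases, then CC), AP-1 (TGANTCA), the TATA box (TATAAA) and an interferon response element (GAAA, any 2 bases, GAAA).
Ccl6: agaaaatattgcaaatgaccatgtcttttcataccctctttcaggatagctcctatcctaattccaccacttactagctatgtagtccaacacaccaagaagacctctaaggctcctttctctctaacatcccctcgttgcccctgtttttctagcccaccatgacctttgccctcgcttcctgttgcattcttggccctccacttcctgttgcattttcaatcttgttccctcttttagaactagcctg
Ccl9: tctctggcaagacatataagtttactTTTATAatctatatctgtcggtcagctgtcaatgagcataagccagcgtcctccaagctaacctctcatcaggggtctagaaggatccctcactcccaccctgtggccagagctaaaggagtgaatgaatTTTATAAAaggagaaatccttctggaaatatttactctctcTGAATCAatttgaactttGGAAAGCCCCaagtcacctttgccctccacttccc
Ccl12: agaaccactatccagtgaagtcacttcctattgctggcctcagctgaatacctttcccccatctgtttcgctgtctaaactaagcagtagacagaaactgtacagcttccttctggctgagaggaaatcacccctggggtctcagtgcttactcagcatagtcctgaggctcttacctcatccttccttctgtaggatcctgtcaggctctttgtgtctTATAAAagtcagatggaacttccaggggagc
Ccl3: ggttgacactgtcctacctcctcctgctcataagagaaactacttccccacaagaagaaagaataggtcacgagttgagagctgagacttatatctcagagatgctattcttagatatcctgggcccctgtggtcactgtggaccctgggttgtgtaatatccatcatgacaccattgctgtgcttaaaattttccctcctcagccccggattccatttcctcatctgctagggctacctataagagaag
In the Ccl9 window the NF-kB letters stood on the other strand 35 to 26 bases before the start, and the AP-1 letters, which read on both strands, 53 to 47 bases before it. TATAAA was found there at 92 to 87 bases on the gene's strand, and at 94 to 89 and 224 to 219 bases on the other strand, the first of which overlaps the match on the gene's strand. Ccl12 held TATAAA 31 to 26 bases before its start. Neither Ccl6 nor Ccl3 held any of these letters. Among 32851 promoters of the same length, 45.8% held the NF-kB letters, 6.75% the AP-1 letters, 12.4% TATAAA and 2.98% the interferon letters. The longest run shared by the Ccl6 and Ccl9 windows was 13 bases, gccctccacttcc, against 7 to 10 bases for the other pairs of matched windows.

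Cell types follow 4 unnamed codes of the deposited cell table, named from marker genes. Microglia (13289 cells) had 10 of 10 microglia markers, macrophages (12841 cells, monocytes included) 4 of 7 monocyte and 7 of 9 macrophage markers, dendritic-like cells (2712) 5 of 8 dendritic cell markers, and neutrophil-like cells (2116) 10 of 10 neutrophil markers. A marker counted at 20 CPM or more and at least 2 times its level in the other cells. Libraries held 155 to 3800 cells and 486649 to 33204422 UMIs, in 7 sequencing pools. Across libraries 127 barcode sequences occurred in 2 libraries, at most 4 for any pair.

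The ligands differed in the cell type that held them. Ccl12 was higher in microglia than in macrophages of the same library in 13 of 14 libraries with both types, Ccl4 in 12 and Ccl3 in 11. Ccl2 was higher in macrophages in 10 of the 14, and Ccl7 in 9, with 1 library at 0 for both types. For Ccl2 the 4 exceptions were D10_mixed 1, D10_mixed 2, D10_resident 1 and D21_mixed 1. In every library of D1 to D3 with both types Ccl2 was higher in macrophages. Ccl3 and Ccl4 were higher in neutrophil-like cells than in macrophages in 4 of 4 libraries, and Ccl5 was higher in dendritic-like cells than in macrophages in 9 of 9. Ccl17 was higher in dendritic-like cells than in macrophages in 8 of 9 libraries. These orders are descriptions, since the cell types were themselves defined on the expression of these cells.

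**Figure D1:**
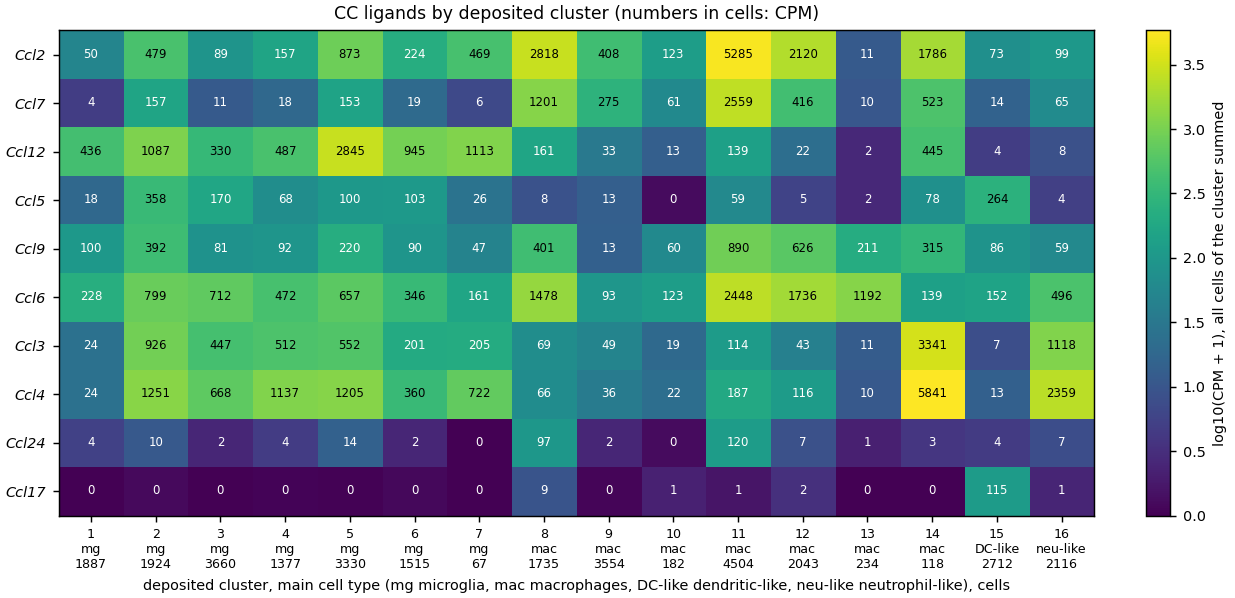
CPM of each ligand (rows) over all cells of each deposited cluster (columns, with main cell type and number of cells), on a log10(CPM + 1) colour scale with the CPM printed in each square. Ccl2 and Ccl7 peak in macrophage cluster 11 at 5285 and 2559 CPM, Ccl12 in microglial cluster 5 at 2845 CPM, and Ccl17 in dendritic-like cluster 15 at 115 CPM.

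Among the 16 deposited clusters the same ligands were split more finely, as the heat map by cluster shows. Macrophage cluster 11 (4504 cells, of which 1045 came from D3_conflict 1) had 5285 CPM of Ccl2, 2559 of Ccl7 and 2448 of Ccl6. Cluster 12 (2043 cells) had 2120 CPM of Ccl2 and 1736 of Ccl6, with 416 of Ccl7. Cluster 13 (234 cells) had 1192 CPM of Ccl6 and 211 of Ccl9, and each of its other ligands was at or under 11.4 CPM. Thus Ccl6 and Ccl9 occurred there nearly without the CCR2 ligands, with Ccl2 at 10.8 CPM. Cluster 14 (118 cells, of which 49 came from D2_resident 1) had 3341 CPM of Ccl3 and 5841 of Ccl4. Only 2 libraries held 20 or more of its cells, and they were at 58.4 and 3687 CPM for Ccl3 and at 0 and 10328 for Ccl4, so the pooled levels rest largely on 1 of them. In microglia, cluster 5 (3330 cells) had 2845 CPM of Ccl12, while cluster 1, which held every control microglial cell, had 436. A cluster is not 1 level: Ccl12 in cluster 5 ran from 139 to 6019 CPM over the 12 libraries with 20 or more of its cells.

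The question of the time course in microglia was tested with edgeR's quasi-likelihood test over 10801 genes in the resident and mixed libraries (17 sums), with sex as a term and a call at an adjusted p under 0.05. Of the 10 ligands, 9 passed the filter on low counts, and Ccl17 did not. At D1 against Ctrl 8 of the 9 were higher, where 23.9% of all genes were called higher, and their median log2 change was 4.39 against -0.01 over all genes. At D2 against Ctrl 4 were higher (17.6% of all genes), at D3 4 (20.1%), at D10 3 (8.06%) and at D21 4 (6.12%). The D21 group of this test is 1 library, D21_mixed 1, and its tests assume that it varies as the other groups do. None was lower in any of these 5 comparisons, where 22.7%, 12.2%, 17.6%, 2.22% and 0.861% of all genes were called lower, and which share the same 2 control libraries. At every time the share of ligands called higher was above that of all genes. From D1 to D3, 8 of the 9 fell, where 10.2% of all genes were called lower, with a median of -2.35 against 0.02. From D3 to D10, Ccl6 rose (2.96% of all genes called higher) and Ccl7 fell (3.92% called lower). Among the libraries of this test no pool holds microglia of both Ctrl and D1, Ctrl and D21, or D1 and D3. There time and pool cannot be told apart. Ctrl and D3, and D3 and D10, share no pool either and are linked only through D2. The times compared also sit in different clusters: control microglia were all in cluster 1, which held no cells of another time, 69.9% of D1 microglia were in cluster 5 and 27.4% in 2, and 48.7% of D10 microglia were in cluster 3 and 32.8% in 4. With the mixed libraries alone, which leave 1 control, calls were lost for Ccl5 and Ccl9 at D1, Ccl3 and Ccl7 at D3, Ccl3, Ccl4 and Ccl6 at D10 and Ccl5 at D21 against Ctrl, for Ccl4, Ccl9 and Ccl24 from D1 to D3, and for Ccl7 from D3 to D10. These 12 changes kept their direction, with log2 sizes such as 4.67 for Ccl5 and 2.73 for Ccl9 at D1, 7.48 for Ccl7 at D3 and 3.30 for Ccl6 at D10 against Ctrl, and -4.01 for Ccl7 from D3 to D10. The 3 D1 libraries are all male and the controls are 1 female and 1 male library. The levels in CPM are not scaled between libraries, whereas the fit scales them by TMM factors, 1.384 and 1.461 in the controls and 0.843 to 0.905 at D1, so a fitted change differs from the ratio of the mean levels. The fit also has a term for sex, without which the D1 change of Ccl2 was 4.34 in place of 4.39.

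**Figure D2:**
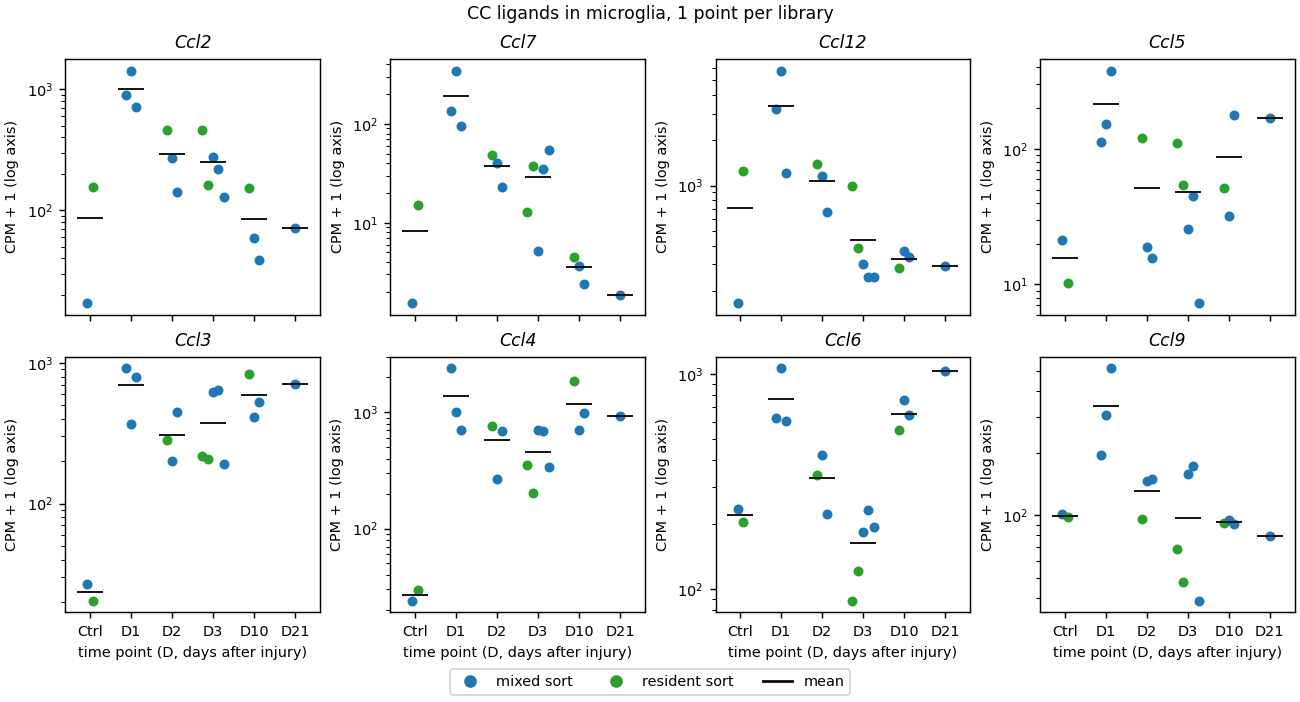
CPM + 1 (log axis) of 8 ligands in microglia by time point, 1 point per library, coloured by sort, with the mean as a line; each panel has its own scale. Ccl2, Ccl7 and Ccl12 are highest at D1 and low again at D10, whereas Ccl3 and Ccl4 stay far above both controls at every time after injury and Ccl6 is high at D1, D10 and D21.

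Ccl2, Ccl7 and Ccl12, the CCR2 ligands, had their highest microglial levels at D1. Ccl2, which attracts monocytes, stood at 16.1 CPM in Ctrl_mixed 1 and 154 in Ctrl_resident 1, and at 899, 1425 and 707 in D1_mixed 1, 2 and 3. All 3 D1 libraries lay above both controls, which themselves differed from each other. It rose by 4.39 on the log2 scale (SE 0.86, edgeR adjusted p = 0.00064). At D2 it stood at 270 and 141 CPM in D2_mixed 1 and 2 and 460 in D2_resident 1, and at D3 at 276, 219 and 127 in the mixed and 461 and 160 in the resident libraries. Levels at D2 and D3 thus lay between those of D1 and of the controls, and D2_mixed 2 and D3_mixed 3 were below Ctrl_resident 1. The rise over Ctrl was 2.19 at D2 (edgeR adjusted p = 0.0429) and 2.07 at D3 (0.0368). Without Ctrl_mixed 1 these were 1.13 and 0.99 and lost the call (edgeR adjusted p = 0.294 and 0.287). The D2 call was also lost with median-of-ratios scaling (0.0516) and without D2_mixed 1, D2_resident 1, D10_mixed 1 or D1_mixed 1, and the D3 call without D3_mixed 1 or D3_resident 1. With pool as a term the D3 value was 1.31 (edgeR adjusted p = 0.531), and in the pool shared by Ctrl_resident 1 and D2_resident 1 Ccl2 was at 154 and 460 CPM. From D1 to D3 Ccl2 fell by 2.32 (edgeR adjusted p = 0.011), a call lost without D1_mixed 2 (0.0599). At D10 Ccl2 was at 58.6, 38.1 and 153 CPM and at D21 at 70.7, within the range of the controls.

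Ccl7, a monocyte attractant encoded next to Ccl2, stood at 0.536 and 14 CPM in the controls and at 133, 345 and 94.2 at D1. It rose by 5.52 (SE 0.94, edgeR adjusted p = 0.000211), with no overlap between the groups. Levels were 22.2 to 47.1 CPM in the 3 D2 libraries, 4.12 to 54.1 in the 5 D3 libraries, 1.4 to 3.55 in the 3 D10 libraries and 0.871 at D21. It fell from D1 to D3 by 2.66 (edgeR adjusted p = 0.00469) and from D3 to D10 by 3.52 (0.0192). By D10 every library was back below Ctrl_resident 1. The rise over Ctrl was 3.36 at D2 and 2.85 at D3, and became 2.04 and 1.77, uncalled, without Ctrl_mixed 1. With pool as a term neither passed, nor did D10 against D3 (edgeR adjusted p = 0.0939, 0.518 and 0.982). The D2 call was also lost without D2_mixed 1 (edgeR adjusted p = 0.0817), the D3-to-D1 call without D1_mixed 2 (0.0529), and the D10-to-D3 call without D10_mixed 1 (0.102) or D10_mixed 2 (0.173).

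Ccl12, a mouse CCR2 ligand with no direct human counterpart, was at 165 CPM in Ctrl_mixed 1 and 1255 in Ctrl_resident 1. At D1 it was at 3193, 5772 and 1201 CPM. The groups overlapped, since D1_mixed 3 lay just under Ctrl_resident 1, and the control mean was 710 ± 771 (SD, n = 2) against 3389 ± 2292 (SD, n = 3) at D1. The fitted rise was 3.02 (SE 0.80, edgeR adjusted p = 0.00547). At D2 it was at 1159, 666 and 1389 CPM, at D3 at 299, 246, 245, 987 and 383, at D10 at 365, 333 and 283, and at D21 at 291. None of these later times passed the test against Ctrl. From D1 to D3 it fell by 3.21 (SE 0.60, edgeR adjusted p = 0.00176). Thinned to 700 UMIs per cell, 29.9% to 67.9% of D1 microglia had a Ccl12 UMI, against 7.72% and 27.8% in the controls and 9.13% to 11.5% at D10. Dendritic-like cells, which held little of it, gave 0.255% and 0.963% at D1.

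Ccl3 and Ccl4, which encode the macrophage inflammatory proteins 1 alpha and beta, rose at D1 and stayed high. Ccl3 was at 25.7 and 19.4 CPM in the controls, and at 914, 366 and 799 at D1. The D2 libraries had 201, 444 and 281 CPM, the D3 libraries 622, 643, 190, 216 and 207, the D10 libraries 409, 522 and 838 and D21_mixed 1 706. Every library of this test taken after injury thus lay above both controls. The rise over Ctrl was 5.57 at D1 (SE 0.71, edgeR adjusted p = 2.16e-05). On D2, D3, D10 and D21 it was 3.98, 4.55, 5.25 and 5.84, with edgeR adjusted p-values of 0.000368 to 8.68e-05. From D1 to D3 the change of -1.02 did not pass (edgeR adjusted p = 0.0958).

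Ccl4 was at 22.9 and 28.6 CPM in the controls and at 2398, 1010 and 708 at D1. The D2 libraries had 268, 688 and 769 CPM, the D3 libraries 703, 690, 340, 349 and 201, the D10 libraries 703, 990 and 1868 and D21_mixed 1 928. The lowest of these, D3_resident 2, was still several times the controls. The rise over Ctrl was 6.36 at D1 (SE 0.77, edgeR adjusted p = 1.43e-05). On D2, D3, D10 and D21 it was 4.76, 4.67, 6.12 and 6.13, with edgeR adjusted p-values of 0.000182 to 5.76e-05. From D1 to D3 it fell by 1.69 (edgeR adjusted p = 0.0138), a call lost without D1_mixed 1 (0.13) and without the cells of cluster 2 (0.063).

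The D10 rises of both genes can be read within a pool. Ctrl_mixed 1 shares a pool with D10_mixed 1 and 2, and Ccl4 was at 22.9 CPM against 703 and 990 there. Ctrl_resident 1 shares one with D10_resident 1 and D2_resident 1, and Ccl4 was at 28.6 CPM against 1868 and 769. The difference was present within each pool. With the mixed libraries alone, which leave 1 control, the D10 calls of Ccl3 and Ccl4 were lost (edgeR adjusted p = 0.17 and 0.0977) at log2 changes of 3.84 and 4.66, in a fit that called 0.637% of all genes.

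Ccl4 lay in few microglia at D10, though not at D10 alone. At D10, 92.4% to 95.4% of the microglial Ccl4 UMIs lay in the tenth of cells with the most, which held 14.1% to 19.2% of all UMIs. That share was 59% to 88.3% at D1, 76.8% in D2_mixed 1 and 89.2% in D2_resident 1. It was 76.1% to 95.9% at D3 and 85.6% at D21, so D2, D3 and D21 overlapped with D1. For Ccl12 it was 48.2% to 68.3% at D1 and 84.1% to 87.8% at D10. Thinned to 700 UMIs, 15% to 44.6% of D1 microglia and 12.9% to 14.9% of D10 microglia had a Ccl4 UMI, against 0.92% and 1.37% in the controls. The share was 12.7% to 15.5% at D2 and 7.11% to 16% at D3. In dendritic-like cells at D1 it was 1.1% and 1.3%.

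Ccl5, which attracts T cells and monocytes, was at 20.4 and 9.17 CPM in control microglia and at 111, 151 and 375 at D1. It rose by 4.56 (SE 1.16, edgeR adjusted p = 0.00408), with a call lost without Ctrl_resident 1 (0.06). At D2 it was at 18, 14.8 and 119 CPM, at D3 at 24.7, 43.9, 6.29, 109 and 53, at D10 at 30.8, 176 and 50.6 and at D21 at 168. These later libraries spread over more than 20 times, from below the controls to above D1_mixed 2. Single cells decided several of them: without the cell with the most Ccl5, D3_resident 1 dropped from 109 to 18.1 CPM and D2_resident 1 from 119 to 62.4. The call at D21 (4.27, edgeR adjusted p = 0.0408) rests on 1 library and was lost in 10 alternatives, among them those without Ctrl_mixed 1, Ctrl_resident 1, D2_mixed 2, D3_resident 2 or D10_resident 1. The change of -2.40 from D1 to D3 (edgeR adjusted p = 0.037) was lost without any of D1_mixed 2, D1_mixed 3, Ctrl_mixed 1, D3_resident 2 or the 3 D3 mixed libraries. The 9 markers of T or NK cells, which make Ccl5 abundantly, summed to 0 to 2.66 CPM in microglia. The part of such cells in the Ccl5 levels was not tested.

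Ccl6 and Ccl9, the rodent CCR1 ligands, were the ligands with the steadiest control levels in microglia. Ccl6 was at 236 and 204 CPM in the controls and at 621, 1062 and 601 at D1. The D2 libraries had 418, 222 and 340 CPM, the D3 libraries 183, 233, 193, 87.4 and 121, the D10 libraries 760, 642 and 547 and D21_mixed 1 1030. The course was high, low and high again: the D3 libraries all lay below every D1, D10 and D21 library. It rose by 2.44 at D1 (SE 0.44, edgeR adjusted p = 0.00031), fell by 2.35 from D1 to D3 (SE 0.30, 9.44e-05) and rose by 2.02 from D3 to D10 (SE 0.30, 0.00131). Against Ctrl it was higher by 2.11 at D10 (edgeR adjusted p = 0.00271) and 3.15 at D21 (0.000697). The D10 call was lost without Ctrl_resident 1 (0.0749), and the rise from D3 was 1.30 with pool as a term (0.966). No pool holds microglia of both D3 and D10. Within pools shared with a control, Ccl6 at D10 was at 760 and 642 against 236 CPM, and at 547 against 204.

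Ccl9 was at 100 and 97.1 CPM in the controls and at 195, 304 and 512 at D1. It rose by 2.50 (SE 0.60, edgeR adjusted p = 0.00258) and fell by 2.02 from D1 to D3 (0.00337). The D2, D10 and D21 libraries were at 78.6 to 148 CPM and the D3 libraries at 37.7 to 172, with no later call against Ctrl. Ccl9 thus lacked the second high phase of Ccl6 at D10, where it was at 94.2, 89.4 and 90.5 CPM. Whether the changes of Ccl6 and Ccl9 differ was not tested.

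Ccl24 was at or under 8.31 CPM and Ccl17 at or under 0.285 CPM in every microglial sum. Ccl24 fell by 2.47 from D1 (8.31, 4.56 and 5.11 CPM) to D3 (0 to 2.51 CPM), with an edgeR adjusted p of 0.00998. It was at 0 in 3 of the 17 microglial sums.

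Marker lists of other cell types were summed in the same microglia. The macrophage list (9 genes, 6 to 9 of them detected) summed to 326 and 392 CPM in control and 1446 to 1927 in D1 microglia, with 5617 at D21. The monocyte list (7 genes) summed to 7.5 and 10.2 CPM in control and 5.91 to 23.2 in D1 microglia. The border macrophage list (5 genes) summed to 1.97 and 5.93 CPM in control and 34.6 to 150 in D1 microglia. The neutrophil list (10 genes, 3 to 6 detected at D1) summed to 203 and 223 CPM in control and 38.3 to 106 in D1 microglia. A list of 14 genes that cell isolation is known to induce, such as Fos and Jun, summed to 1743 and 2241 CPM in control, 611 to 886 in D1 and 299 to 610 in D3 microglia. It was thus highest in the controls. The part of these lists in the results was not tested.

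The time course in macrophages used the infiltrating and mixed libraries (15 sums, 8577 genes) with D1 as reference, since controls held no macrophages to compare. Of the 9 ligands tested, 8 were lower at D10 than at D1, where 7.04% of all genes were called lower, with a median log2 change of -4.55 against 0.01. At D21, 2 were lower (1.61% of all genes), and from D3 to D10, 2 were lower (0.583%). At D2 and D3 none was called against D1, and 0% of all genes were called in either comparison. There, edgeR gave 123 and 612 genes at an unadjusted p under 0.05, and DESeq2 called 0 and 5 genes. With the mixed libraries alone, which leave 1 library at D3, 9 ligands were lower at D3 (4.82% of all genes) and 4 at D2 (0.388%). All comparisons with D1 share its 4 libraries. Among the libraries of this test no pool holds macrophages of both D1 and D10, or of both D3 and D10. That leaves time and pool confounded there (they cannot be told apart). D1 and D3 share no pool either. The macrophage code also sat in different clusters by time. At D1, 54% of these cells were in cluster 11, 21% in 12 and 19.7% in 8, at D10 61.1% were in cluster 9 and 22.6% in the mainly microglial cluster 3, and at D21 67.1% were in cluster 3, 46.1% and 91% in the 2 libraries. At D3, 88.6% of D3_mixed 3 but 3.76% of D3_infiltrating 1 was in cluster 9. A change over time is thus one of the whole code, and whether it holds within a cluster was not tested. D1_mixed 1 and D1_mixed 3 contributed only 28 and 54 macrophages, against 1269 and 1885 in D1_infiltrating 1 and 2.

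**Figure D3:**
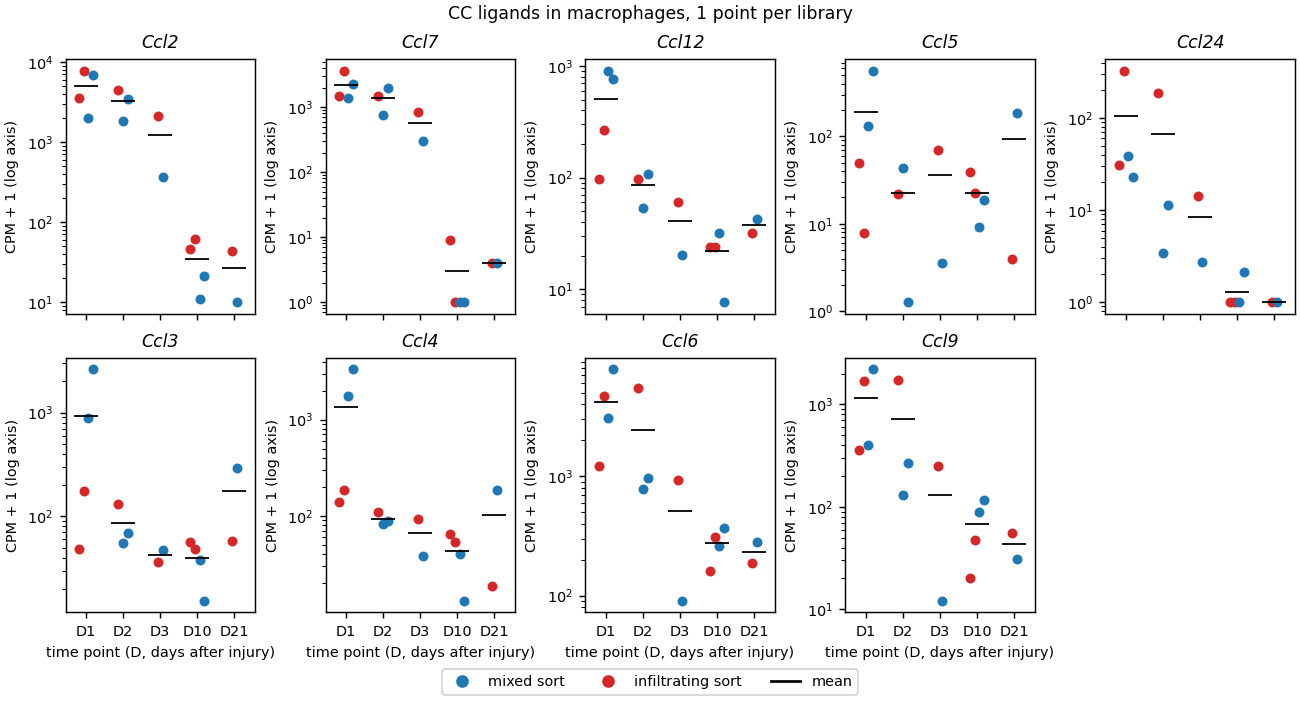
CPM + 1 (log axis) of 9 ligands in macrophages by time point, 1 point per library, coloured by sort, with the mean as a line; each panel has its own scale. Ccl2 and Ccl7 lie above 300 CPM in every library up to D3 and at or below 59.5 CPM at D10 and D21, while Ccl3, Ccl4 and Ccl12 are highest in the D1 mixed libraries.

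Ccl2 and Ccl7 were abundant in early macrophages and nearly gone by D10. Ccl2 was at 3542 and 7770 CPM in D1_infiltrating 1 and 2 and at 1996 and 6833 in D1_mixed 1 and 3. The D2 libraries had 4504, 1820 and 3390 CPM, the D3 libraries 2105 and 361, the D10 libraries 44.4, 59.5, 9.76 and 20 and the D21 libraries 42.7 and 8.96. The lowest library up to D3 was thus 361 and the highest later one 59.5. The change from D1 was -7.12 at D10 (SE 0.78, edgeR adjusted p = 0.000181) and -7.42 at D21 (SE 1.11, 0.00431), and from D3 to D10 it was -4.80 (SE 0.77, 0.0117). The last of these was lost without D10_mixed 1 or D10_mixed 2 (edgeR adjusted p = 0.0569 and 0.0584), and the D21 call without D21_infiltrating 1 (0.0862). In the pool shared by D1_mixed 1, D1_mixed 3 and D21_mixed 1, Ccl2 was at 1996, 6833 and 8.96 CPM.

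Ccl7 was at 1457, 3635, 1377 and 2296 CPM at D1, at 1455, 753 and 1972 at D2 and at 836 and 303 at D3. At D10 it was at 8.18 CPM in D10_infiltrating 1 and at 0 in the 3 other libraries. The change was -9.23 from D1 (SE 0.89, edgeR adjusted p = 8.53e-05) and -7.16 from D3 (SE 0.90, 0.00235). At D21 the 2 libraries held 3 UMIs together against 81547 at D1, a ratio of 867 (95% counting interval 297 to 4205), or 500 (171 to 2423) without D1_infiltrating 2. That comparison was called (edgeR adjusted p = 0.00345), but not without D21_infiltrating 1 (0.0993). Thinned to 700 UMIs, 18.5% to 52.8% of D1 macrophages had a Ccl7 UMI, against 3.85% and 6.15% of neutrophil-like cells of the same time and 0% to 0.335% of D10 macrophages.

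Ccl12 in macrophages was at 96.7 and 264 CPM in the infiltrating and at 907 and 771 in the mixed libraries at D1. The D2 libraries had 96, 52.6 and 106 CPM, the D3 libraries 59.5 and 19.4, the D10 libraries 22.8, 23.1, 30.9 and 6.66 and the D21 libraries 30.9 and 41.8. All D10 libraries lay below all D1 libraries, and the change was -4.33 (SE 0.64, edgeR adjusted p = 0.0014).

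Ccl3 and Ccl4 in macrophages differed between the infiltrating and mixed libraries at D1. Ccl3 was at 47.2 and 175 CPM in the infiltrating and at 877 and 2608 in the mixed libraries, and Ccl4 at 138 and 183 against 1775 and 3323. In D1_mixed 1 a single cell of 29317 UMIs held 187 of 207 Ccl3 UMIs and 305 of 419 Ccl4 UMIs, and without it these levels were 96.8 and 552 CPM. The 2 mixed sums also had more of the microglia list, at 1038 and 1408 CPM against 372 and 299, and D1_mixed 3 more of the border macrophage list, at 5999 against 281 to 1602 CPM. Of the macrophages, 4 of 28 in D1_mixed 1 and 13 of 54 in D1_mixed 3 were in cluster 14. In D1_infiltrating 1 and 2 these were 2 of 1269 and 5 of 1885. Over all its cells that cluster had 3341 CPM of Ccl3 and 5841 of Ccl4. The part of the lists and of cluster 14 in the result was not tested. Ccl3 was at 54.9 to 131 CPM at D2 and at 35.6 and 46.6 at D3. Ccl4 was at 81.2 to 109 CPM at D2 and at 37.6 and 92.5 at D3. At D10 Ccl3 was at 14.4 to 55.3 CPM and Ccl4 at 12.2 to 64.2, with changes from D1 of -4.55 (SE 1.08, edgeR adjusted p = 0.0147) and -4.99 (SE 1.06, 0.00951). In the infiltrating libraries alone the times overlapped for Ccl3, at 47.2 and 175 CPM at D1 and 55.3 and 47.9 at D10, but not for Ccl4, at 138 and 183 against 64.2 and 52.9. At D21 Ccl3 was at 57.4 and 293 CPM, above every D10 library, and Ccl4 at 17.7 and 185.

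Ccl5 in macrophages was at 48.8, 6.93, 131 and 564 CPM at D1 and at 37.7, 21.5, 8.14 and 17.7 at D10, and no comparison called it (D10 against D1 -3.63, edgeR adjusted p = 0.101). In D2_infiltrating 1, 123 of its 124 UMIs lay in 1 cell.

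Ccl6 and Ccl9 fell together in macrophages. Ccl6 was at 1221, 4681, 3085 and 7852 CPM at D1, at 5485, 786 and 970 at D2 and at 932 and 89.6 at D3. At D10 it was at 159, 311, 260 and 364 CPM and at D21 at 185 and 278. D3_mixed 3 was already the lowest of all 15 libraries. Ccl9 was at 361, 1694, 403 and 2206 CPM at D1, at 1751, 129 and 270 at D2, at 248 and 11.1 at D3, at 19.3, 46.3, 87.9 and 116 at D10 and at 54.4 and 29.9 at D21. Both were high in D1_infiltrating 2, D1_mixed 3 and D2_infiltrating 1 and lower elsewhere. The change from D1 to D10 was -3.88 for Ccl6 (SE 0.78, edgeR adjusted p = 0.00734) and -4.11 for Ccl9 (SE 0.98, 0.0155). That of Ccl9 was lost without D1_infiltrating 2 (0.0505).

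Ccl24, an eosinophil attractant, was at 30.2, 326, 38.1 and 21.9 CPM in D1 macrophages, at 185, 2.39 and 10.4 at D2 and at 13.1 and 1.72 at D3. At D10 it was at 1.11 CPM in D10_mixed 2, from 1 UMI, and at 0 in the other 3 libraries, and at D21 it was at 0 in both. Against the 5698 UMIs of D1 the D10 level was 1103 times lower (95% counting interval 198 to 43575, edgeR adjusted p = 0.0131), and the D21 level at least 60.6-fold lower by a floor of 3 counts over the group, uncalled (0.131). D1_infiltrating 2 held 5223 of the 5698 UMIs, and without it the D10 ratio was 185 (33.1 to 7333).

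In macrophages other lists moved with the falls. The isolation list summed to 2508 to 3364 CPM at D1, 721 to 845 at D10 and 1398 and 1729 at D21, so here it was high where the ligands were high. The border macrophage list (5 genes, 3 to 5 detected) summed to 281 to 5999 CPM at D1 and 22.8 to 51.3 at D10, and the microglia list to 299 to 1408 at D1, 1006 to 3377 at D10 and 2366 and 4782 at D21. The neutrophil list summed to 21.2 to 506 CPM at D1 and 66.1 to 281 at D10. Their part in the falls was not tested.

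Whether macrophages and microglia changed unequally was tested in 1 fit over 32 sums and 11486 genes, in which all 10 ligands were tested. From D1 to D10, 5 ligands fell more in macrophages than in microglia, where 6.12% of all genes were called in that direction. They were Ccl4 (difference of log2 changes -4.52, SE 1.13, edgeR adjusted p = 0.0137), Ccl3 (-4.07, 0.0207), Ccl6 (-3.64, 0.0106), Ccl2 (-3.43, 0.0237) and Ccl24 (0.0167), whose fitted size depends on 1 UMI at D10. For Ccl3, Ccl4 and Ccl6 this sets a fall in macrophages beside D10 levels in microglia near those of D1. Ccl7 (-2.68, edgeR adjusted p = 0.127) and Ccl12 (-1.05, 0.481) did not pass. Without D10_mixed 2 none of the 5 was called, although the differences were of like size (-4.34 for Ccl4, -3.86 for Ccl3, -3.78 for Ccl6 and -3.63 for Ccl2), without D10_mixed 1 or D1_mixed 3 2 were called, and without D1_infiltrating 2 3 were. From D1 to D3 none of the 10 differed, where 0.0871% of all genes were called, 1255 genes had an unadjusted p under 0.05 and DESeq2 called 66. The fit treats the microglia and macrophages of a mixed library as separate samples.

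Ccl17, a ligand of T cells that dendritic cells make, was abundant in 2 libraries alone. In dendritic-like cells it was at 1166 CPM in D1_infiltrating 2 (176 cells) and 1298 in D2_infiltrating 1 (90 cells), and at 0 to 35.8 CPM in the 7 others. D1_infiltrating 1, of the same time and sequencing pool, had 15.3 CPM over 363 cells. Thinned to 700 UMIs, 19.1% and 17.8% of the dendritic-like cells of the 2 libraries had a Ccl17 UMI, against at most 3.11% elsewhere and at most 0.342% of macrophages. The same 2 libraries had the highest Ccl24 in macrophages and the highest Ccl6 and Ccl9 in dendritic-like cells, with Ccl6 at 442 and 856 CPM against 77.8 to 350 elsewhere. They share a sequencing pool, but the first is labelled male and the other female (coded male in the deposited cell table), and they were taken at D1 and D2. With so few libraries no comparison of times was made for this cell type.

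**Figure D4:**
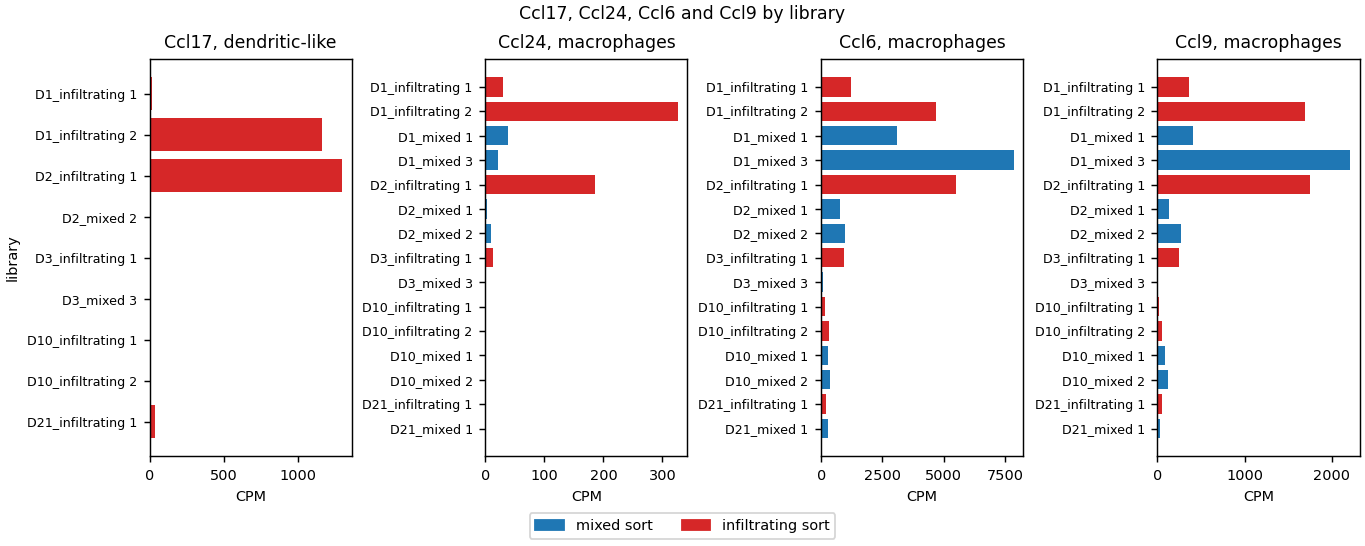
CPM of Ccl17 in dendritic-like cells and of Ccl24, Ccl6 and Ccl9 in macrophages, 1 bar per library of the infiltrating and mixed sorts; each panel has its own linear scale from 0. D1_infiltrating 2 and D2_infiltrating 1 hold the 2 longest bars for Ccl17 and Ccl24, and for Ccl6 and Ccl9 D1_mixed 3 joins them.

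Neutrophil-like cells held Ccl3, Ccl4 and Ccl6. Ccl3 was at 526 and 2180 CPM in D1_infiltrating 1 and 2, at 246 in D2_infiltrating 1 and at 1851 in D2_mixed 2. Ccl4 was at 1723, 5298, 578 and 2038 CPM in these libraries, and Ccl6 at 574, 461, 1641 and 93.6. D1_infiltrating 2 was thus highest for Ccl3 and Ccl4 and D2_infiltrating 1 for Ccl6. Thinned to 700 UMIs, 22.8% and 50.9% of these cells at D1 had a Ccl3 UMI, against 0.396% and 0.964% of dendritic-like cells of the same libraries. The isolation list summed to 5675 and 7632 CPM here at D1, above every microglial and macrophage sum of the tests.

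Ligands also went together within single cells, as a description over the cells of 1 library at D1 to D3. Ccl2 and Ccl7 had a Pearson r of 0.56 to 0.72 in the macrophages of 5 libraries, and in D1_infiltrating 2 79.3% of cells with Ccl2 had Ccl7 against 13.4% of cells without it. Ccl6 and Ccl9 had an r of 0.58 to 0.71 in 4 of these libraries and 0.3 in D3_mixed 3. Ccl6 and Ccl7, taken from different pairs, had an r of 0.03 to 0.33 in the 5 libraries. In D1 microglia Ccl3 and Ccl4 had an r of 0.56, 0.57 and 0.62. Ccl4 and Ccl12 had one of -0.06, -0.17 and -0.13 there. Ccl12 was found in 72.4%, 74.8% and 42.4% of cells with Ccl4 in D1_mixed 1, 2 and 3 against 71.2%, 86.7% and 54.4% of those without, so the order was not the same in all 3. For r the UMIs of a cell were scaled to its total and put on a log2 scale, which leaves the effect of depth on zero counts. The percentages of cells were not corrected for depth.

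Likeness across libraries gave part of the same pairs, by Pearson r of log2(CPM + 5), over sums that share time points and pools. Ccl2 was not among the 3 genes nearest to Ccl7 in macrophages. In microglia Ccl9 was not among the 3 nearest to Ccl6. Over the 17 microglial sums the gene most like Ccl3 was Ccl4 (0.955), and the converse held. Over the 15 macrophage sums Ccl6 was most like Ccl9 (0.972), and Ccl3 most like Ccl4 (0.934). Among the genes nearest to Ccl7 were Clec4d (0.983) and Adam8 (0.980), and Ccl2 had Tmem189 (0.981), Ccl7 (0.979) and Thbs1 (0.975). Ccl24 was most like Pla1a (0.942). In microglia Ccl12 was most like Selenon (0.920) and Manf (0.900), and no gene passed 0.780 for Ccl5, whose nearest was Rps10.

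Single cells carried part of the spread between libraries. Among sums with more than 30 UMIs of a ligand, leaving out its highest cell moved the level by over 1.5 times in 9 of 120 microglial and 32 of 132 macrophage sums. It did so in 9 of 11 macrophage sums of Ccl5, and in none of the 19 of Ccl6 or the 17 of Ccl9. The extreme was a cell of 12578 UMIs in cluster 2 with the macrophage code in D10_resident 1, a library outside the macrophage test. It held 859 of the 864 Ccl12 UMIs, 861 of 929 Ccl4 and 238 of 290 Ccl3, and without it Ccl12 dropped from 801 to 4.69 CPM and Ccl4 from 861 to 63.8.

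**Figure D5:**
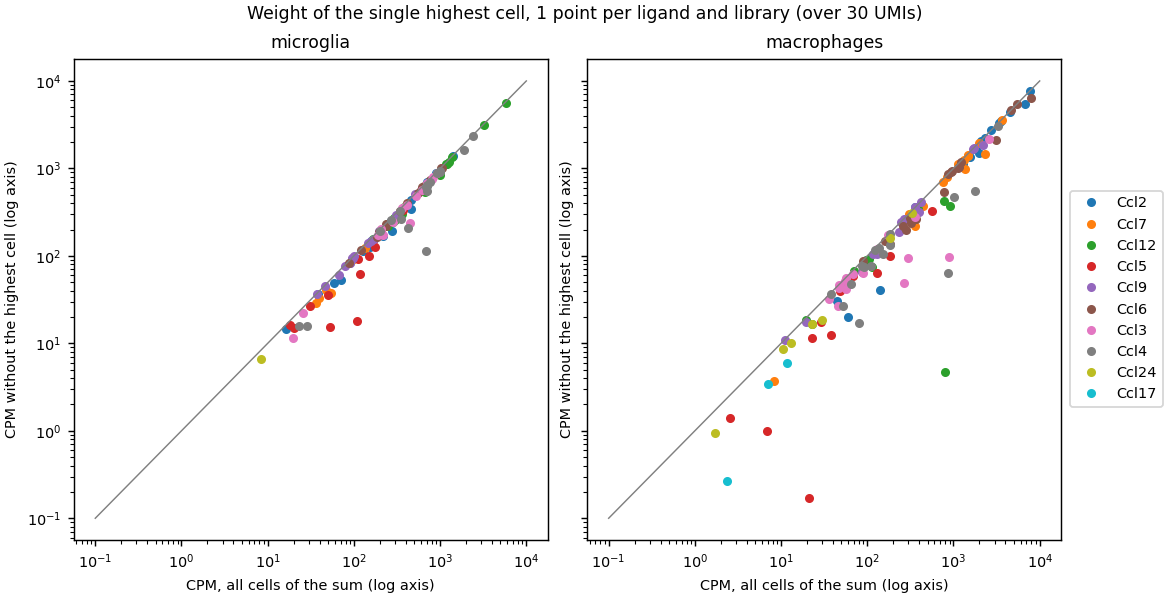
CPM without the cell that holds the most UMIs of a ligand (vertical log axis) against CPM of all cells (horizontal log axis), 1 point per ligand and library with over 30 UMIs, all sorts included; the line marks equality. Microglial points lie close to the line except 9 of 120, whereas in macrophages 32 of 132 moved by over 1.5 times, the farthest being Ccl12 of D10_resident 1, from 801 to 4.69 CPM.

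Of 14 receptors and decoy receptors of CC ligands, 3 were tested in microglia and 4 in macrophages. None was called higher than Ctrl in microglia at any time. Ccrl2, a receptor that binds without signalling, fell at D1 by 1.63 (edgeR adjusted p = 0.0122). In macrophages Ccr1, a receptor of Ccl3, Ccl5, Ccl6 and Ccl9, fell by 3.20 from D1 to D10 (edgeR adjusted p = 0.0294), and Ccr2 had a change of -0.03. Ccr2 ran from 5.94 to 563 CPM in macrophages and from 190 to 889 in dendritic-like cells, against 0 to 4.33 in microglia. Of 13 other CC ligands, 3 were tested in microglia and 2 in macrophages. Ccl25 fell at D1 by 2.83 (edgeR adjusted p = 0.000304), at D2 by 1.34 and at D3 by 2.28, and Ccl8 was called higher at D2 on 90 UMIs in all (edgeR adjusted p = 0.0169) at 0 to 96.2 CPM over all microglial sums. Ccl22, which shares the receptor of Ccl17, was at 0 to 80.3 CPM in dendritic-like cells, highest in D2_infiltrating 1.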

How the data were processed

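Raw UMI counts of every gene in every cell were deposited by library, beside a cell table with sequencing pool, cluster and cell type codes; the counts were made with Cell Ranger 3.1.0 on GRCm38 (mm10), per the submitters' processing notes. Every deposited cell was kept, doublets were not called and no background RNA was removed. Counts were summed per library and cell type, with at least 20 cells, and tested with edgeR 4.0.16 (TMM, filterByExpr, quasi-likelihood, time and sex as terms, Benjamini-Hochberg over all genes, threshold 0.05) in R 4.3.3. All tests are 2-sided. Sums held 23 to 3019 cells and 135097 to 22068469 UMIs. Python 3.11.15 was used for the rest. Intervals are exact 95% Poisson intervals and, like floors, cover counting error only. Code names came from marker lists. All 10 ligands were read in every comparison, and receptors, other CC ligands, isolation genes and likeness (3 nearest genes) by fixed lists or rules. The members and lists were chosen with earlier results of these data known. D2_infiltrating 1 is labelled female but coded male, and the label was used. Libraries of 1 group pool separate mice as far as the labels show, and p-values measure the spread between them. Alternatives were median-of-ratios scaling, no filter, DESeq2 1.42.0, pool or sort as a term, mixed libraries only, at least 50 cells, no cluster 2, a replicate block and leaving out each library; those without the sex term, without pairs of libraries, without the highest cell and of ratios near 0 without a library were added after seeing the data. The fits were tested on simulated data. Some items of the receptor and likeness lists are not reported here.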

Additional observations from a re-analysis of the deposited data

Results flagged for a closer look

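In groups of 4 to 10 libraries, 4 levels stood apart from the rest by Dixon's test among 30 groups tested, where chance gives about 1 in 20. They were Ccl12 in D3 microglia of D3_resident 1 (987 CPM), Ccl24 in D1 macrophages of D1_infiltrating 2 (326 CPM), Ccl24 in D10 macrophages of D10_mixed 2 (1.11 CPM, 1 UMI) and Ccl7 in D10 macrophages of D10_infiltrating 1 (8.18 CPM). For the last pair the other 3 libraries were at 0, so that any UMI in the remaining library stands apart and the chance rate does not apply.

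D3_conflict 1, which entered no test of the main analysis, was higher over all its cells than both control libraries for 9 ligands: Ccl2 (2095 CPM), Ccl7 (861), Ccl6 (681), Ccl9 (333), Ccl4 (168), Ccl3 (93), Ccl5 (79.3), Ccl24 (17.4) and Ccl17 (1.17). Ccl12, at 53.7 CPM, was below both (165 and 1255). The comparison is between unlike cells, since the controls are microglia throughout and 2367 of the 3800 cells of D3_conflict 1 are macrophages, 528 dendritic-like and 897 neutrophil-like.

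The D10 against D1 change differed between macrophages and microglia for 5 ligands in the edgeR test of the difference, where 6.12% of all genes were called in that direction: Ccl24 (-8.14, log2), Ccl4 (-4.52), Ccl3 (-4.07), Ccl6 (-3.64) and Ccl2 (-3.43). The Ccl24 value rests on 1 UMI in D10 macrophages, and the test called 0 of the ligands without D10_mixed 2, 2 without D10_mixed 1 or without D1_mixed 3, and 3 without D1_infiltrating 2. The share of all genes called in these refits is not reported here.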

How the results depend on the processing

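The report called 50 member changes, and over 1411 refits of them 1332 kept direction and call, 79 lost the call and 0 reversed. Calls were kept in every alternative for 21 and lost in 1 or more for 29. Of 76 uncalled changes of the ligands other than Ccl17, 35 turned direction and 35 were called in at least 1 alternative.

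Counts of called ligands moved by over 1.5 times as follows; the cause was not tested beyond the fewer libraries of some settings. In microglia, D10 against D3 went from 2 to 4 with DESeq2 (13.4% of all genes called) and without the filter (6.37%), 1 with mixed libraries only (1.05%) and 0 with pool as a term (0%). D10 against Ctrl went from 3 to 5 with pool as a term (22.3%) and 0 with mixed libraries only (0.637%), D3 against Ctrl from 4 to 2 under each of these (2.36% and 5.63%), and D3 against D1 from 8 to 5 with mixed libraries only (10.7%). In macrophages, D21 against D1 went from 2 to 7 with DESeq2, 6 without the filter, 5 without D2_mixed 2 and D3_mixed 3 (9.11%, 3.2% and 5.68% of all genes called, against 305 of 8577 in the main test), and 4 with sort as a term (4.93%), without the sex term (6.11%) or with D3_conflict 1 added (3.91%). D3 against D1 went from 0 to 1 with DESeq2 (0.0583%) and 9 with mixed libraries only (11.5%), which also gave 4 at D2 (0.602%) and 4 for the difference of D3 against D1 (2.86%). Pool as a term gave no value for the macrophage D10 comparisons, microglia D1 or D21 against Ctrl, or microglia D3 against D1.

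Leaving out each library in turn gave, in microglia, 7 to 8 calls at D1, 2 to 5 at D2, 2 to 6 at D3, 3 to 4 at D10 and 3 to 4 at D21 against Ctrl, 5 to 8 for D3 against D1 and 1 to 3 for D10 against D3. In macrophages it gave 0 to 0 at D2 and D3, 7 to 9 at D10, 0 to 5 at D21 and 1 to 2 for D10 against D3, and for the differences 0 to 0 at D3 and 0 to 6 at D10. The microglial counts dropped to 2 without Ctrl_mixed 1 (D2, D3) or D2_mixed 1 (D2), and to 5 without D1_mixed 2. The D21 macrophage count was 0 without D21_infiltrating 1, 5 without D1_infiltrating 1 and 4 without D2_infiltrating 1, D3_infiltrating 1 or D3_mixed 3. The share of all genes called in each of these refits is not reported here. A lost or gained call thus cannot be read as particular to the ligands.

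The replicate numbers did not pair the samples: same-numbered D1_mixed and D3_mixed libraries correlated at -0.0217, 0.0918 and 0.0724. With a replicate block, 3 ligands were called for microglia D3 and D21 against Ctrl, 7 for D3 against D1, 3 for D10 against D3 and 7 for macrophages D10 against D1, where Ccl3 was not called (-2.95, edgeR adjusted p = 0.0557), and the other counts stayed the same. The share of all genes called with the block is not reported here.

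Median-of-ratios scaling moved the median of all genes at D1 against Ctrl from -0.01 to -0.18 and turned no called direction. Of 100 mean shares of cells with a UMI, 94 were higher at 1500 than at 700 UMIs, and 53 moved by more than 1 SD. Sums of few cells (D1_mixed 1 and 3 macrophages, D2_mixed 2 microglia) limit single levels.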

Other observations

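Macrophage-coded cells of the resident sort lay outside the macrophage test. Their Ccl2 was at 2317 CPM in D2_resident 1 (185 cells), 1534 and 1280 in D3_resident 1 and 2 (40 and 79 cells) and 141 in D10_resident 1 (134 cells). Ccl7 was at 1324, 358, 442 and 2.78 CPM in the same order. Both genes thus ran from high at D2 to low at D10 here as well, in libraries of another sort. Ccl6 was at 1159, 324, 1122 and 15.8 CPM. Microglia-coded cells of the infiltrating sort were few, 36 in D10_infiltrating 2 and 41 in D21_infiltrating 1, with Ccl4 at 428 and 70.1 CPM and Ccl3 at 262 and 23.4, the last from 3 UMIs.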
